A study of Mus musculus with 24 samples.

Results

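The mitochondrial respiratory chain is the set of inner-membrane protein complexes that carry electrons from NADH and succinate to oxygen and use the resulting proton gradient to make ATP. Its nuclear-encoded genes were described here in mouse lung after inhaled ozone (O3), in mice without TNF receptors and in wild-type mice. The members were the genes whose symbol starts with Nduf, Uqcr, Atp5, Cox4i, Cox5, Cox6, Cox7 or Cox8, together with Sdha, Sdhb, Sdhc, Sdhd, Cyc1 and Cycs, each read by a probe set annotated to 1 gene. Where a gene had several probe sets, that with the highest mean was used. There were 86 such genes among the 12372 on the array, carried by 160 of its 22644 probe sets. All 86 passed the filter on low values, which 11597 genes passed.

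By role, 33 genes encode subunits of complex I (NADH dehydrogenase), 5 encode complex I assembly factors of the Ndufaf series, 4 encode complex II (succinate dehydrogenase), 9 complex III (the cytochrome bc1 complex), 1 cytochrome c, 17 complex IV (cytochrome c oxidase, Ndufa4 included) and 17 the ATP synthase. Complexes I and II pass electrons to ubiquinone, complex III passes them on to cytochrome c, and complex IV hands them to oxygen. The ATP synthase lets protons flow back through a ring of c subunits. In lung, alveolar type II cells, which secrete surfactant, and alveolar macrophages are known to be rich in mitochondria.

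The study asked how signalling through TNF bears on lung injury by O3. Whole left lungs of male mice aged 6 to 8 weeks were homogenised, and RNA of 3 separate animals per group was hybridised to 1-colour Affymetrix arrays, 24 in all. The Tnfr-/- mice carry germline deletions of both TNF receptors (strain B6.129S-Tnfrsf1a tm1Imx Tnfrsf1b tm1Imx/J, the name of which records 129S-derived alleles on a C57BL/6 background), and the wild type, Tnfr+/+, was C57BL/6J. Of each genotype, 1 group breathed filtered air and 3 groups breathed 0.3 ppm O3 for 24, 48 or 72 h. Air and O3 were given in separate chambers, so the chamber and the gas cannot be told apart. The labels give no sampling time for the air groups, and each air group served all O3 times of its genotype. Nor can the deletions be told apart from other stretches of 129S genome that the line may carry.

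The deposited intensities summed to 14877040 to 16057693 per array, and the array medians lay between 213 and 247. Summed over 9 markers, alveolar type II cells gave 127000 to 145000 in all groups, which fits the labelled tissue. The array of Tnfr+/+ O3 72 h replicate 1 was set apart by its Gapdh 3'/5' signal ratio of 4.45, against 0.89 to 1.74 for the other 23, and correlated with the rest at 0.926 on average, against 0.942 to 0.954. Where it changed a call or a count by much, the value without it stands beside the result, except for counts of unadjusted p-values. Tnfrsf1b, targeted in the mutants, read 151 to 266 in Tnfr-/- lungs and 356 to 525 in Tnfr+/+ lungs, and Tnfrsf1a differed by -0.41 on the log2 scale (adjusted p = 0.037). Whether these probe sets lie in the deleted stretches was not checked. Levels below are quantile-normalised intensities, comparable between lungs for 1 probe set but not between probe sets. Differences are log2 fold changes from 1 limma model over all 8 groups, and a gene was called where its p-value, adjusted over 20537 probe sets, was under 0.05.

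At 48 h of O3 the set was slightly higher than in air in both genotypes. The median log2 fold change of the 86 was 0.15 in Tnfr-/- lungs, against -0.06 over all 11597 genes tested and -0.04 over the 2900 brightest. In Tnfr+/+ lungs it was 0.11, against -0.02 over both of those sets. Fold changes above 0 were found for 68 members in Tnfr-/- and 62 in Tnfr+/+.

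The same pattern stood in the single lungs, as each lung's median deviation of the 86 genes from their own means over all arrays. In Tnfr-/- lungs it was -0.07, -0.04 and -0.11 in air, 0.09, -0.01 and 0.01 at 24 h, 0.13, 0.15 and 0.00 at 48 h, and -0.09, 0.02 and 0.00 after 72 h. In Tnfr+/+ lungs it was -0.08, -0.05 and -0.05 in air, 0.00, -0.04 and -0.07 at 24 h, -0.03, 0.13 and 0.08 at 48 h, and -0.04, 0.04 and 0.00 after 72 h. All 3 lungs at 48 h lay above all 3 air lungs of their genotype, and the sizes were small on the log2 scale. The highest Tnfr+/+ value at 48 h, 0.13, came from replicate 2. That lung also carried the highest summed level of brown fat markers, 1840, against a middle value of 880 in its group. The part of fat tissue in its deviation was not tested. In whole-lung RNA, fewer cells of a type and less RNA per cell cannot be told apart.

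**Figure D1:**
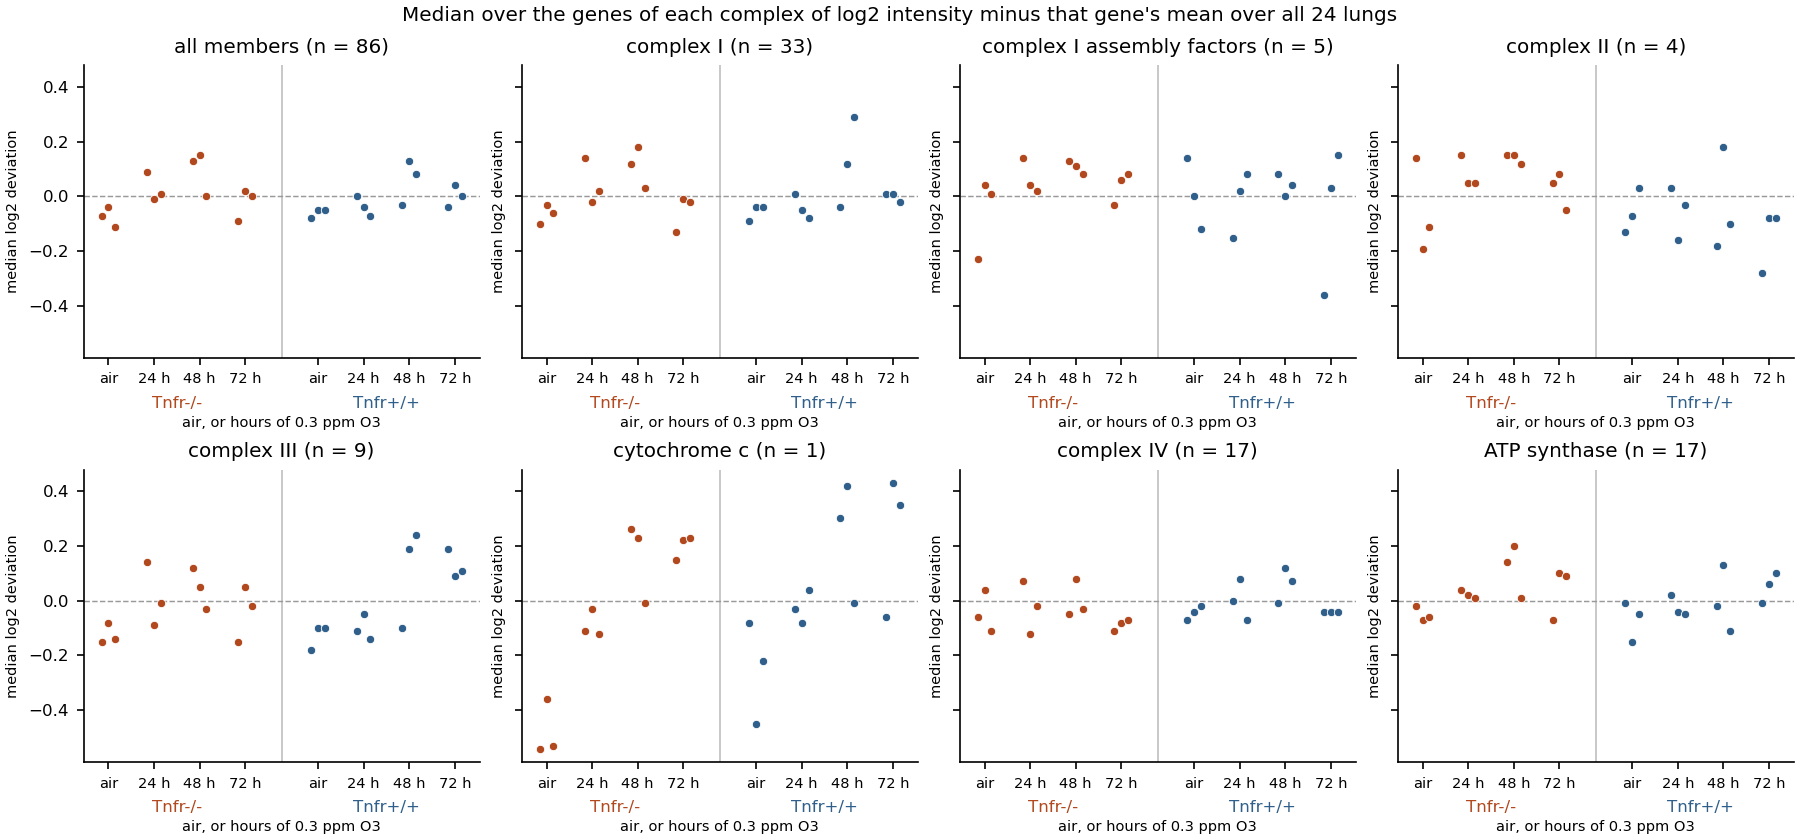
Median log2 deviation of the members of each complex from their means over all 24 arrays (vertical axis), 1 point per lung, by genotype and exposure (horizontal axis). At 48 h complex IV, a median of 17 genes, lies between -0.05 and 0.12 in all 6 lungs. Cytochrome c, a single gene and so more variable, lies between -0.01 and 0.42.

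Gene by gene, the share of members whose groups did not overlap lay above that of the array upwards and below it downwards in each of the 6 comparisons of O3 with air. The times of a genotype share 1 air group, so the 6 comparisons are not independent. The array shares take in dim probe sets, and no share of separate groups was taken over bright genes alone. At 48 h in Tnfr-/- mice, 31 of the 86 genes (36.0%) had all 3 O3 lungs above all 3 air lungs, and over all probe sets tested 15.6% did. The 31 included Atp5a1 and Atp5b, which form the catalytic head of the ATP synthase, and Ndufs1, Ndufs3 and Ndufv1, core subunits of complex I. In the other direction 7 genes (8.14%) separated, against 15.9% of all probe sets, among them Cox4i2, the lung form of its complex IV subunit. At 48 h in Tnfr+/+ mice 16 genes (18.6%) separated upwards, against 8.32%, and 0 downwards, against 8.33%. Ndufv1, Cox5a and Cyc1, the cytochrome c1 of complex III, were among these 16. At 72 h the upward share was 15.1% (13 genes) in Tnfr-/- mice, against 12.6%, and 22.1% (19 genes) in Tnfr+/+ mice, against 9.53%. The downward share at that time was 9.3% (8 genes, against 13.4%) in Tnfr-/- mice and 2.33% (2 genes, against 10.2%) in Tnfr+/+ mice. Without replicate 1 of the Tnfr+/+ O3 72 h lungs, which leaves 2 lungs against 3, the shares at 72 h were 34.9% upwards (30 genes, against 16.8%) and 3.49% downwards (3 genes, against 17.6%). At 24 h the members separated upwards in 18.6% (16 genes, against 10.8%) and downwards in 2.33% (2 genes, against 11.1%) in Tnfr-/- mice, and in 9.3% (8 genes, against 5.84%) and 2.33% (2 genes, against 6.07%) in Tnfr+/+ mice.

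Calls were few, and their share was close to that of the array. Averaged over both genotypes, 5 of the 86 genes rose at 48 h (5.81%), namely Cycs, Atp5g1, Uqcrc1, Uqcrq and Ndufaf4, and over the array 4.39% of probe sets were called higher. At that time 0 fell, against 2.93%, and 0 members (against 10.9%) had an unadjusted p under 0.05 with a lower level in limma. At 72 h 6 rose (6.98%, against 5.63%), namely Cycs, Atp5g1, Uqcrc1, Uqcrb, Ndufb1 and Ndufaf4, and Ndufb8 alone fell (1.16%, against 5.05%). At 24 h Atp5g1 alone rose (1.16%, against 0.945%) and 0 members fell (against 0.336%). Before adjustment, a p under 0.05 with a higher level was reached by 20 members at 48 h (23.3%, against 10.6%), by 17 at 72 h (19.8%, against 11.6%) and by 8 at 24 h (9.3%, against 5.98%). With a lower level it was reached by 6 members at 72 h (6.98%, against 12.9%) and by 0 at 24 h (against 5.73%). The 6 were Cox4i1, Cox6a2, Ndufb10, Ndufb8, Sdha and Uqcr10. The array shares take in dim probe sets, while the members were mostly bright (median percentile 93.2). Of the 2900 brightest genes, 47, 176 and 205 were called higher at 24, 48 and 72 h, and 21, 194 and 291 lower. An unadjusted p under 0.05 in limma was reached upwards by 247, 366 and 391 of these genes, and downwards by 235, 495 and 598.

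Within 1 genotype, calls were made in Tnfr-/- mice for Atp5g1 and Cycs at 48 h (2.33% of the members, against 2.60% of all probe sets called higher) and again for these genes at 72 h (2.33%, against 2.60%). No member was called lower at either time (against 1.24% and 1.36%), and none was called at 24 h in either direction (against 0.726% and 0.375%). Unadjusted p-values under 0.05 in limma went upwards to 7 members at 24 h (8.14%, against 6.3%), 12 at 48 h (14%, against 9.45%) and 6 at 72 h (6.98%, against 8.49%), and downwards to 1 (against 6.21%), 1 (against 8.95%) and 4 (4.65%, against 8.52%). Among the 2900 brightest genes they went upwards to 234, 318 and 296 and downwards to 265, 400 and 394. In Tnfr+/+ mice limma called 0 members at 24, 48 and 72 h, where 0.0682%, 0.901% and 1.84% of all probe sets were called higher and 0.0146%, 0.273% and 1.26% lower. Here unadjusted p-values under 0.05 went upwards to 2 (2.33%, against 3.18%), 10 (11.6%, against 6.04%) and 12 members (14%, against 8.6%), and downwards to 0 (against 2.71%), 0 (against 5.57%) and 2 (2.33%, against 9.28%). Of the 2900 brightest genes, 103, 213 and 277 did so upwards and 55, 250 and 414 downwards. All of these 12 members but Cycs and Ndufaf4 had the highest value of their group on Tnfr+/+ O3 72 h replicate 1, where Cycs and Ndufaf4 had their lowest. The study's methods name a t-test for O3 times, which its legends call moderated and use at another threshold. Here an ordinary t-test of O3 against air, followed by Benjamini-Hochberg adjustment, called 0 members in either genotype at any time. Its unadjusted p was under 0.05 with a higher level for 9, 26 and 9 members of Tnfr-/- mice at 24, 48 and 72 h (10.5%, 30.2% and 10.5%, against 6.76%, 11.5% and 8.75% of all probe sets), and with a lower level for 1, 3 and 7 (1.16%, 3.49% and 8.14%, against 6.82%, 10.6% and 8.52%). For Tnfr+/+ mice these numbers were 4, 11 and 4 upwards (4.65%, 12.8% and 4.65%, against 3.09%, 4.81% and 5.1%) and 0, 0 and 2 downwards (against 2.95%, 4.65% and 5.77%). Without Tnfr+/+ O3 72 h replicate 1 in any fit, limma called Cycs higher in Tnfr+/+ mice at 48 and at 72 h (1.16% of the members, against 1.24% and 1.56% of all probe sets), and 9 members higher at 48 h averaged over genotypes (10.5%, against 5.77%).

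**Figure D2:**
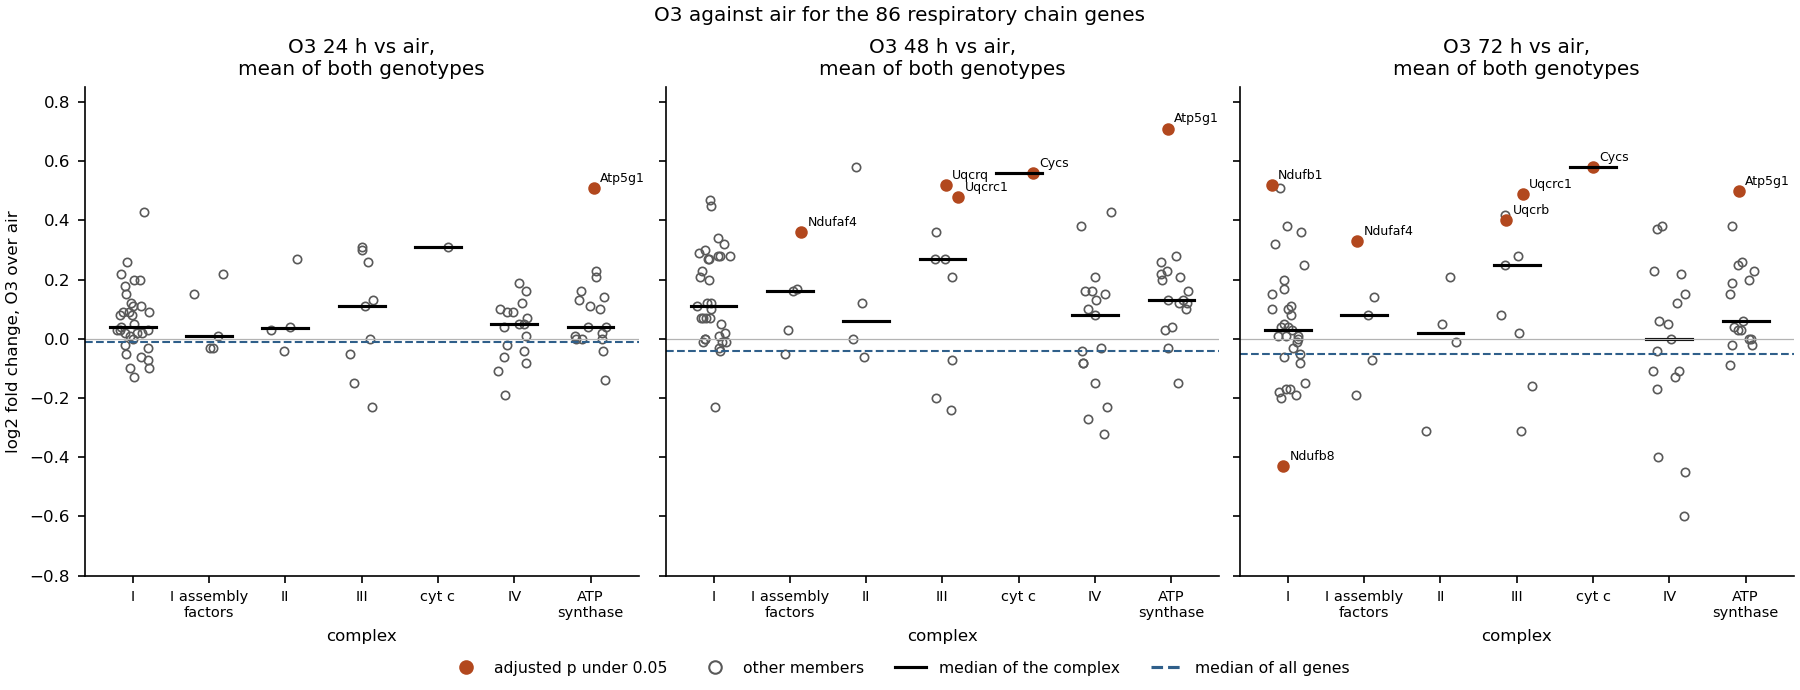
Log2 fold change of each member, O3 over air averaged over both genotypes (vertical axis), by complex (horizontal axis) and time (panels), with called genes named. At 48 h 15 of the 17 ATP synthase genes and 26 of the 33 complex I genes lie above 0, and Cycs lies at 0.56.

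The members that stood out most across times were Cycs, Atp5g1 and Uqcrc1, and the only member called lower by O3 was Ndufb8. The promoters of these 4 genes are shown because these genes carry most of the calls. The windows run from 250 bases before to 50 bases after the gene's start in RefSeq (build GRCm38.p6), 5' to 3' on the gene's strand. Capitals mark matches, on either strand, to letters searched for NRF1 (GCGCA, any 1 base, then GCGC), ETS factors (CCGGAAG), YY1 (AAGATGGC), Sp1 (GGGCGG), estrogen-related receptors (AAGGTCA), the cyclic AMP response element (TGACGTCA) or the CCAAT box (CCAAT). The letters for the last 2 elements were added after the windows had been seen.
Cycs promoter, chr6:50566520-50566819, minus strand: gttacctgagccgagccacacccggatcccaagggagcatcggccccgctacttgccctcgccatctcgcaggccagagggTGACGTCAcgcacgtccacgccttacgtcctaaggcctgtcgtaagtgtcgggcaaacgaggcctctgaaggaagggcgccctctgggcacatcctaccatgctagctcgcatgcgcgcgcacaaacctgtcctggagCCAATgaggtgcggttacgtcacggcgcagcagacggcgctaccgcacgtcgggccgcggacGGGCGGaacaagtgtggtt
Atp5g1 promoter, chr11:96075582-96075881, minus strand: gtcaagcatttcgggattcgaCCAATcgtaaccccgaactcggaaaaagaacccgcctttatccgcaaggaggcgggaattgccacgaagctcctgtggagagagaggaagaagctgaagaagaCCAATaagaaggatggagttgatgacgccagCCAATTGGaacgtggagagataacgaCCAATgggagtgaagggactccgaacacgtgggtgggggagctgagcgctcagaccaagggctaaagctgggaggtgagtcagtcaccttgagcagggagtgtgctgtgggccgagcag
Uqcrc1 promoter, chr9:108936398-108936697, plus strand: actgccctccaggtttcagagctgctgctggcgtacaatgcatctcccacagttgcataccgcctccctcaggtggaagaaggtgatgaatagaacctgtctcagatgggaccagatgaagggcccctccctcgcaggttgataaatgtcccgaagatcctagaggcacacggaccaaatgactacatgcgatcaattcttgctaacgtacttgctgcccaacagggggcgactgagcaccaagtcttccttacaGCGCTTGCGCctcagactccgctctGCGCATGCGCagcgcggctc
Ndufb8 promoter, chr19:44555393-44555692, minus strand: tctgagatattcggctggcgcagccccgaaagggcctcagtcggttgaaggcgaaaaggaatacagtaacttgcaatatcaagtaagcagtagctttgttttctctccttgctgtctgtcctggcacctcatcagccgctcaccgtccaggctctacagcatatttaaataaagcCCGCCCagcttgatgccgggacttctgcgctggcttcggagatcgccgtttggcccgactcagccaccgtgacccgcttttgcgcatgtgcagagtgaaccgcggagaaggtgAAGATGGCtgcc

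The Cycs window held 1 match each to the cyclic AMP response element, the CCAAT box and Sp1. A stretch of the Cycs window that differs from the NRF1 letters by 1 base was not counted, as only exact letters were. The Atp5g1 window held 5 CCAAT matches, of which 2 overlap on opposite strands as CCAATTGG, and none to the other letters. Uqcrc1 held 2 NRF1 matches near the start, and Ndufb8 held 1 match to Sp1, as CCGCCC on the other strand, and 1 to YY1. Of the 86 members, 71 had a window, 76 windows in all. NRF1 letters were found in 17 of these 76 (22.4%), against 4.6% of all 32851 windows, and ETS letters in 18 (23.7%), against 8.86%. YY1 letters were in 9 (11.8%, against 2.75%), Sp1 letters in 33 (43.4%, against 35.7%), estrogen-related receptor letters in 7 (9.21%, against 4.72%), cyclic AMP response element letters in 4 (5.26%, against 1.79%) and CCAAT in 30 (39.5%, against 37.4%). A match of letters is a description of the window only, and binding was not measured here.

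Cycs encodes somatic cytochrome c, the soluble carrier between complexes III and IV, which also triggers caspase activation once released from mitochondria. Its levels in Tnfr-/- lungs were 1720, 1950 and 1720 in air, 2310, 2450 and 2290 at 24 h, 2980, 2920 and 2480 at 48 h, and 2770, 2910 and 2920 after 72 h. In Tnfr+/+ lungs they were 2350, 1830 and 2140 in air, 2440, 2360 and 2560 at 24 h, 3080, 3340 and 2480 at 48 h, and 2390, 3370 and 3170 after 72 h. Every O3 lung lay above every air lung of its genotype. Averaged over genotypes, the log2 fold change of Cycs was 0.31 at 24 h (adjusted p = 0.17), 0.56 at 48 h (SE 0.10, 95% interval 0.36 to 0.77, adjusted p = 0.0014) and 0.58 at 72 h (SE 0.10, 0.38 to 0.79, adjusted p = 0.00077).

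In Tnfr-/- mice alone, Cycs rose by 0.64 at 48 h (SE 0.14, adjusted p = 0.013) and by 0.68 at 72 h (SE 0.14, adjusted p = 0.0085). The 48 h call of Cycs was lost without any 1 of 4 arrays, air replicates 1 and 3 and O3 48 h replicates 1 and 2 of that genotype (adjusted p up to 0.068). In Tnfr+/+ mice the values were 0.49 at both times (SE 0.14, adjusted p = 0.11 and 0.063). The gene has 3 probe sets. Averaged over genotypes, another of these gave 0.49 at 48 h and at 72 h (adjusted p = 0.0081 and 0.006 in limma), and the dimmest gave 0.19 and 0.29 (adjusted p = 0.28 and 0.078). With the dimmest probe set the calls of Cycs in Tnfr-/- mice alone were lost at both times.

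Atp5g1 encodes, with its paralogs Atp5g2 and Atp5g3, subunit c, which forms the proton-driven ring of the ATP synthase. In Tnfr-/- lungs it read 676, 934 and 839 in air, 1650, 1200 and 1220 at 24 h, 1430, 1780 and 1810 at 48 h, and 1460, 1030 and 1570 after 72 h. In Tnfr+/+ lungs it read 899, 900 and 917 in air, 973, 1300 and 1080 at 24 h, 1030, 1260 and 1230 at 48 h, and 1140, 1140 and 1030 after 72 h. All O3 lungs lay above the air lungs of their genotype, and the 3 highest of the 24 values were in Tnfr-/- lungs at 24 and 48 h. Averaged over genotypes, Atp5g1 rose by 0.71 on the log2 scale at 48 h (SE 0.12, 0.45 to 0.96, adjusted p = 0.0014) and by 0.50 at 72 h (SE 0.12, 0.24 to 0.76, adjusted p = 0.013). At 24 h it rose by 0.51 (SE 0.12, 0.25 to 0.77, adjusted p = 0.047), a call that was lost in 11 of 12 fits without 1 array, with an adjusted p up to 0.15, and held when O3 24 h replicate 1 of Tnfr+/+ mice was left out.

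By genotype, Atp5g1 rose in Tnfr-/- mice by 1.04 at 48 h (SE 0.17, 0.68 to 1.41, adjusted p = 0.0017) and by 0.72 at 72 h (SE 0.17, adjusted p = 0.025). The 72 h call of Atp5g1 was lost without any 1 of Tnfr-/- air replicates 1 and 3 or Tnfr-/- O3 72 h replicates 1 and 3 (adjusted p up to 0.13). In Tnfr+/+ mice its values were 0.37 at 48 h (SE 0.17, adjusted p = 0.43) and 0.28 at 72 h (SE 0.17, adjusted p = 0.42). The difference between the genotypes' O3 effects at 48 h was 0.68 (SE 0.25, 0.16 to 1.19) with an unadjusted p of 0.013, and it did not pass adjustment (adjusted p = 0.81). Over all 17 ATP synthase genes the averaged median at 48 h was 0.13, and Atp5o, a subunit of the stator stalk, stood at 0.53 in Tnfr-/- mice (adjusted p = 0.16).

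**Figure D3:**
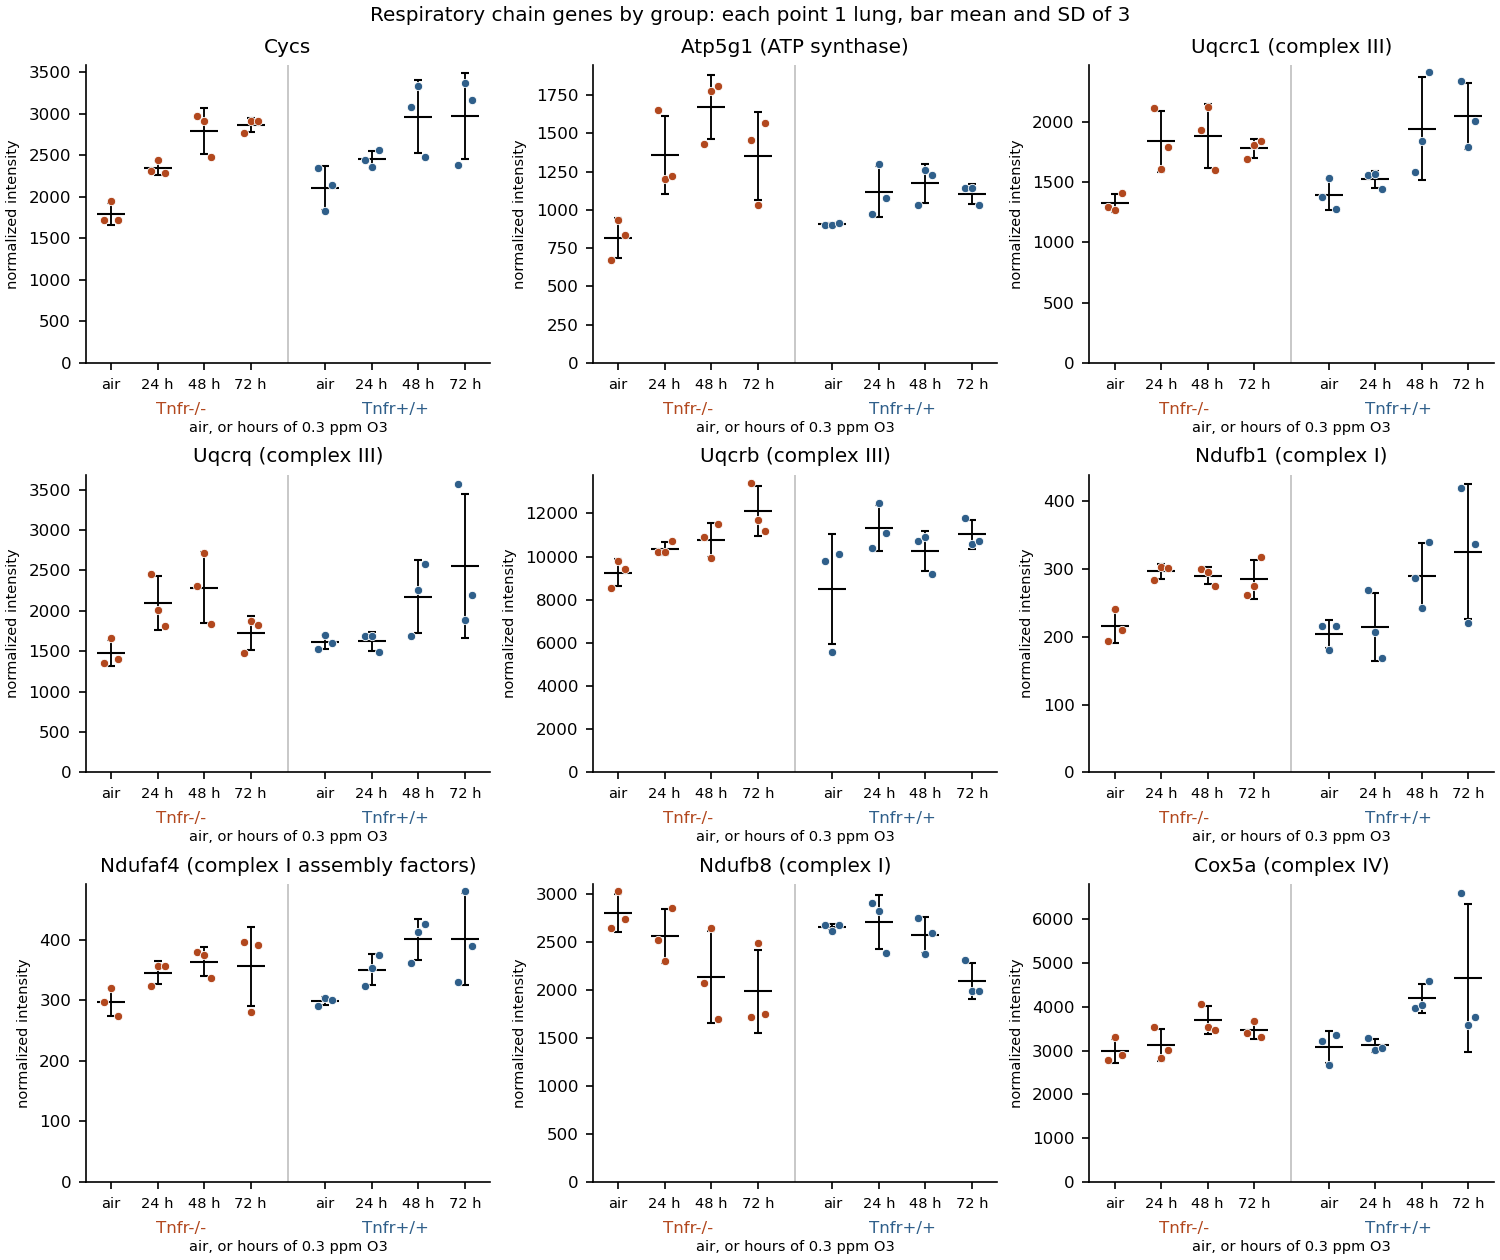
Quantile-normalised intensity (vertical axis) of 9 members by genotype and exposure (horizontal axis), with 1 point per lung and bars for the mean and SD of 3 lungs. Cycs and Atp5g1 lie above air in every O3 lung of their genotype, and at 72 h Ndufb8 lies below air in every O3 lung of its genotype.

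In complex III the median log2 fold change of the 9 genes, averaged over genotypes, was 0.27 at 48 h, with 6 above 0, and 0.25 at 72 h, with 7 above 0. With Tnfr+/+ O3 72 h replicate 1 out of every fit the median of 72 h was 0.12. Uqcrc1, a core subunit on the matrix side, read 1290, 1270 and 1410 in Tnfr-/- lungs in air, 2110, 1610 and 1790 at 24 h, 1930, 2120 and 1600 at 48 h, and 1690, 1810 and 1840 after 72 h. In Tnfr+/+ lungs Uqcrc1 read 1380, 1530 and 1280 in air, 1560, 1570 and 1440 at 24 h, 1580, 1840 and 2410 at 48 h, and 2340, 1790 and 2010 after 72 h. At 48 and 72 h the O3 lungs of both genotypes lay above their air lungs, and at 24 h only those of Tnfr-/- mice did. Uqcrc1 rose by 0.48 at 48 h (SE 0.11, 0.25 to 0.71, adjusted p = 0.01) and by 0.49 at 72 h (SE 0.11, 0.26 to 0.71, adjusted p = 0.0068).

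Uqcrq and Uqcrb, small subunits of the same complex, were called at 1 time each. Uqcrq at 48 h read 2310, 2710 and 1840 in Tnfr-/- O3 lungs, against 1360, 1660 and 1410 in Tnfr-/- air lungs, and 1690, 2260 and 2580 in Tnfr+/+ O3 lungs, against 1530, 1700 and 1600 in Tnfr+/+ air lungs. The Tnfr-/- groups did not overlap, and the Tnfr+/+ groups overlapped by 1 lung. Uqcrq rose by 0.52 at 48 h (SE 0.15, 0.21 to 0.83, adjusted p = 0.039). The call of Uqcrq was lost in 9 of 12 fits without 1 array, with an adjusted p up to 0.11, and held without Tnfr-/- O3 48 h replicate 3, Tnfr-/- air replicate 2 or O3 48 h replicate 1 of the wild type, and its other 3 probe sets gave -0.14, -0.12 and -0.15.

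Uqcrb at 72 h read 13400, 11700 and 11200 in Tnfr-/- O3 lungs, against 8560, 9810 and 9410 in Tnfr-/- air lungs, and 11800, 10600 and 10700 in Tnfr+/+ O3 lungs, against 9810, 5580 and 10100 in Tnfr+/+ air lungs. Neither pair of groups overlapped. Uqcrb rose by 0.40 (SE 0.12, 0.15 to 0.65, adjusted p = 0.036), a call lost in 8 of 12 fits without 1 array, with an adjusted p up to 0.082, and held when the array left out was Tnfr-/- O3 72 h replicate 3 or, in the wild type, O3 72 h replicate 2 or air replicate 1 or 3. With Tnfr+/+ O3 72 h replicate 1 out of every fit Uqcrb stood at 0.38 (adjusted p = 0.06), and another of its probe sets gave 0.33 (adjusted p = 0.33).

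Complex I had a median of 0.11 at 48 h over its 33 genes and of 0.03 at 72 h. Ndufb1, an accessory subunit of the membrane arm, read 262, 275 and 317 in Tnfr-/- O3 lungs at 72 h, against 194, 241 and 210 in Tnfr-/- air lungs, and 419, 220 and 337 in Tnfr+/+ O3 lungs, against 215, 180 and 216 in Tnfr+/+ air lungs. No O3 lung overlapped the air lungs of its genotype. Ndufb1 rose by 0.52 at 72 h (SE 0.14, 0.23 to 0.82, adjusted p = 0.023), and the adjusted p went up to 0.057 when 1 of 3 arrays was left out (in Tnfr-/- mice O3 72 h replicate 3 or air replicate 1, in Tnfr+/+ mice air replicate 2), which ended the call. At 48 h Ndufb1 stood at 0.47 (adjusted p = 0.051).

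Ndufb8, an accessory subunit of the same arm, was the 1 member called lower by O3. At 72 h it read 1720, 2490 and 1750 in Tnfr-/- O3 lungs, against 2650, 3030 and 2740 in Tnfr-/- air lungs, and 2310, 1990 and 1990 in Tnfr+/+ O3 lungs, against 2680, 2620 and 2680 in Tnfr+/+ air lungs. Both pairs of groups were separate. Ndufb8 fell by 0.43 on the log2 scale at 72 h (SE 0.11, -0.67 to -0.19, adjusted p = 0.02), and without Tnfr-/- O3 72 h replicate 3 the adjusted p was 0.054. Its values were -0.06 at 24 h and -0.23 at 48 h (adjusted p = 0.25).

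Among the assembly factors, Ndufaf4, which helps to build complex I, read 380, 375 and 336 in Tnfr-/- O3 lungs at 48 h, against 297, 320 and 274 in Tnfr-/- air lungs, and 362, 413 and 426 in Tnfr+/+ O3 lungs, against 291, 304 and 301 in Tnfr+/+ air lungs. The groups of each genotype were separate at that time. Ndufaf4 rose by 0.36 at 48 h (SE 0.10, adjusted p = 0.04) and by 0.33 at 72 h (SE 0.10, adjusted p = 0.048). Another probe set of Ndufaf4 gave 0.12 at 48 h (adjusted p = 0.73) and 0.26 at 72 h (adjusted p = 0.35). The 2 calls were lost in 9 and 10 of 12 fits without 1 array, and in 5 and 8 of 12 other alternatives. The call of 48 h held when O3 48 h replicate 3 or air replicate 2 of Tnfr-/- mice or O3 48 h replicate 1 of Tnfr+/+ mice was left out (otherwise the adjusted p reached 0.10), and that of 72 h when O3 72 h replicate 2 of Tnfr-/- or replicate 1 of Tnfr+/+ mice was (otherwise 0.11).

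Complex II and complex IV had no member called by O3. The 4 complex II genes had a median of 0.06 at 48 h. Sdhd, a membrane anchor of succinate dehydrogenase, read 1650, 1500 and 1250 in Tnfr-/- O3 lungs at 48 h, against 1070, 712 and 640 in Tnfr-/- air lungs, and 880, 1150 and 939 in Tnfr+/+ O3 lungs, against 853, 872 and 741 in Tnfr+/+ air lungs. The groups did not overlap in either genotype. The averaged value of Sdhd was 0.58 (adjusted p = 0.063) and that in Tnfr-/- mice 0.89 (adjusted p = 0.061), while another of its probe sets gave an averaged value of -0.32.

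Complex IV had a median of 0.08 at 48 h and 0.00 at 72 h over 17 genes, of which 9 and 8 lay above 0. Cox5a, a nuclear-encoded subunit that joins the enzyme early in its assembly, read 3400, 3670 and 3310 in Tnfr-/- O3 lungs at 72 h, against 2790, 3310 and 2890 in Tnfr-/- air lungs, and 6600, 3580 and 3770 in Tnfr+/+ O3 lungs, against 3210, 2660 and 3360 in Tnfr+/+ air lungs. The Tnfr+/+ groups were separate, while the lowest Tnfr-/- O3 lung and the highest Tnfr-/- air lung both read 3310 after rounding. The value of 6600 belonged to Tnfr+/+ O3 72 h replicate 1. Cox5a stood at 0.38 at 48 h (adjusted p = 0.076) and at 0.38 at 72 h (adjusted p = 0.061), and with that array out of every fit it was called at 48 h and stood at 0.24 at 72 h (adjusted p = 0.09).

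**Figure D4:**
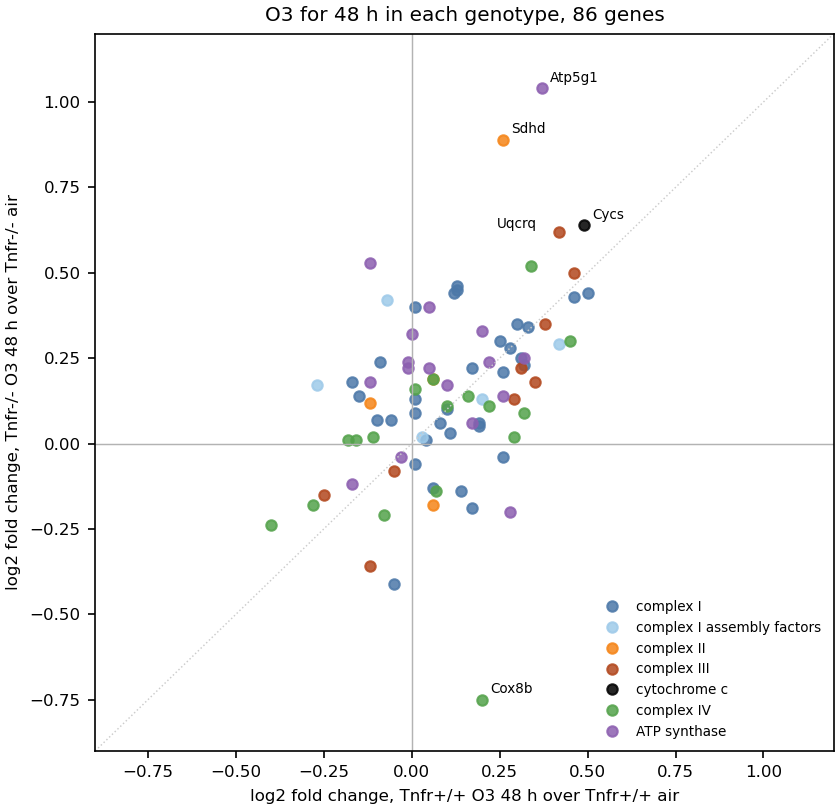
Log2 fold change of each member after 48 h of O3 in Tnfr-/- lungs (vertical axis) against that in Tnfr+/+ lungs (horizontal axis), 1 point per gene, with colours for the complexes. In both genotypes 52 of the 86 genes lie above 0 and 9 below, and Atp5g1 stands at 1.04 in Tnfr-/- lungs and 0.37 in Tnfr+/+ lungs.

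Whether the O3 response of the chain differed between the genotypes was tested gene by gene. The interaction called 0 of the 86 members at each time in limma. Over the array 0.00974% of probe sets were called upwards at 24 h, 0% at 48 h and 0.00487% at 72 h, and 0% downwards at each time. An unadjusted p under 0.05 was reached upwards by 0 members at 24 h (against 3.1% of all probe sets), 2 at 48 h (against 2.82%) and 1 at 72 h (against 2.68%), and downwards by 0 (against 3.13%), 1 (against 2.69%) and 0 (against 2.63%). For Cycs at 48 h the difference was 0.15 (-0.27 to 0.56), so that an effect as large as the averaged change of 0.56 lies at the edge of its interval. Fold changes above 0 in both genotypes were found for 32 members at 24 h, 52 at 48 h and 38 at 72 h, below 0 in both for 10, 9 and 20, above 0 in Tnfr-/- only for 27, 15 and 14, and above 0 in Tnfr+/+ only for 12, 9 and 11.

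Between the genotypes themselves, averaged over the 4 exposures, the median log2 difference was 0.00 over the 86 genes and -0.03 over all genes. No member was called higher (against 3.17% of all probe sets), with 4 members under an unadjusted p of 0.05 in limma (4.65%, against 11.5%), and 2 were called lower (2.33%, against 2.47%), Cox7a1 and Cox7a2l, with 4 at an unadjusted p under 0.05 (4.65%, against 11.1%). At single exposures, in air or at any O3 time, limma called 0 members. Over the array, the shares called in these 4 comparisons were 0.0536%, 0.584%, 0.0974% and 0.117% higher and 0.0341%, 0.419%, 0.0682% and 0.0438% lower, in air and at 24, 48 and 72 h. Unadjusted p-values under 0.05 went upwards to 3 members in air (against 3.3% of all probe sets), 3 at 24 h (against 7.07%), 4 at 48 h (against 5.74%) and 0 at 72 h (against 5.81%). They went downwards to 1 in air (against 3.62%), 1 at 24 h (against 6.98%), 2 at 48 h (against 5.03%) and 5 at 72 h (against 5.25%). Groups did not overlap, with Tnfr-/- above, for 4 members in air (4.65%, against 7.82%), 12 at 24 h (14%, against 12%), 5 at 48 h (5.81%, against 9.96%) and 3 at 72 h (3.49%, against 6.14%). With Tnfr-/- below, they numbered 7 in air (8.14%, against 7.54%), 2 at 24 h (2.33%, against 11.1%), 3 at 48 h (3.49%, against 9.07%) and 9 at 72 h (10.5%, against 6.85%). Most of these shares lay near or below those of the array.

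Of complex II, all 4 genes had averaged differences of 0.00 or more (median 0.16), the largest being 0.31 for Sdhd (adjusted p = 0.17), for which another probe set gave -0.10.

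Cox7a2l encodes a factor that helps complexes III and IV join into supercomplexes. In air it read 1680, 1850 and 2080 in Tnfr-/- lungs, against 2840, 3640 and 2100 in Tnfr+/+ lungs. Under O3 the Tnfr-/- lungs had 1970, 2510 and 2520 at 24 h, 1950, 1950 and 1720 at 48 h, and 1930, 2350 and 1960 after 72 h, against 2550, 2780 and 2570, then 2330, 2440 and 2660, then 1990, 2170 and 2280 in Tnfr+/+ lungs. The groups were separate in air, at 24 h and at 48 h, with Tnfr-/- lower, and overlapped at 72 h. Cox7a2l was lower by an averaged log2 difference of -0.30 (SE 0.08, -0.47 to -0.13, adjusted p = 0.034), and its other probe sets gave -0.25 (adjusted p = 0.038) and -0.12 (adjusted p = 0.50). The call was lost in 9 of 24 fits without 1 array (Tnfr-/- air replicates 1 and 2, O3 24 h replicate 1, O3 48 h replicates 2 and 3 and O3 72 h replicate 3; Tnfr+/+ air replicate 1, O3 24 h replicate 2 and O3 48 h replicate 3), with an adjusted p up to 0.063. It was also lost with the mean of all its probe sets (-0.23, adjusted p = 0.062) and with the 3'/5' signal ratios of the control genes as a covariate (-0.38, adjusted p = 0.07).

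Cox7a1, Cox6a2 and Cox8b are the heart and skeletal muscle forms of their complex IV subunits. Cox7a1 in air read 115, 144 and 90.9 in Tnfr-/- lungs, against 212, 106 and 219 in Tnfr+/+ lungs. Under O3 it read 129, 62.6 and 102 at 24 h, 108, 82.2 and 103 at 48 h, and 86.1, 76.1 and 71.8 after 72 h in Tnfr-/- lungs, against 211, 182 and 147, then 151, 192 and 74.4, then 211, 99.3 and 117 in Tnfr+/+ lungs. The groups overlapped in air and at 48 h and were separate at 24 and 72 h. Cox7a1 was lower in Tnfr-/- mice by an averaged log2 difference of -0.67 (SE 0.18, -1.05 to -0.30, adjusted p = 0.035). Its probe set was dim, at percentile 28.4 of all probe sets kept, while the median over the members was 93.2. Cox6a2 differed by -0.36 (adjusted p = 0.066) and Cox8b by -0.53 (adjusted p = 0.22). The call of Cox7a1 was lost in 13 of 24 fits without 1 array (adjusted p up to 0.066) and with Tnfr+/+ O3 72 h replicate 1 out of every fit (-0.59, adjusted p = 0.053). With the 3'/5' signal ratios of the control genes, given by group further on, as a covariate, a fit added after the data had been seen, the difference of Cox7a1 was -0.35 (adjusted p = 0.42). The 13 arrays were Tnfr-/- air replicates 1 and 3, O3 24 h replicate 2, O3 48 h replicate 2 and O3 72 h replicates 2 and 3, and Tnfr+/+ air replicates 1 and 3, O3 24 h replicates 1 and 2, O3 48 h replicates 1 and 2 and O3 72 h replicate 1.

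Heart muscle markers moved with these isoforms. Of 16 such markers, 6 were called lower in Tnfr-/- mice averaged over exposures (Myh6, Tnni3, Myl4, Sln, Csrp3 and Mb), and their median was -0.52. The summed level of the 16 ran over 6050 to 12400 in air, 7270 to 10900 at 24 h, 6960 to 7860 at 48 h and 6550 to 7910 at 72 h in Tnfr-/- lungs, against 8210 to 18100, 12000 to 15900, 7450 to 11800 and 8120 to 16100 in Tnfr+/+ lungs. The Tnfr+/+ air lung with the lowest marker sum, 8210, was that with the Cox7a1 level of 106. The part of cardiac tissue in these differences was not tested. Cox8b had 1 high value, 823 in Tnfr+/+ O3 48 h replicate 2, where Ucp1, the uncoupling protein of brown fat, read 416, against 4.93 to 18.5 in the other 23 lungs. The part of brown fat in that value was not tested.

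**Figure D5:**
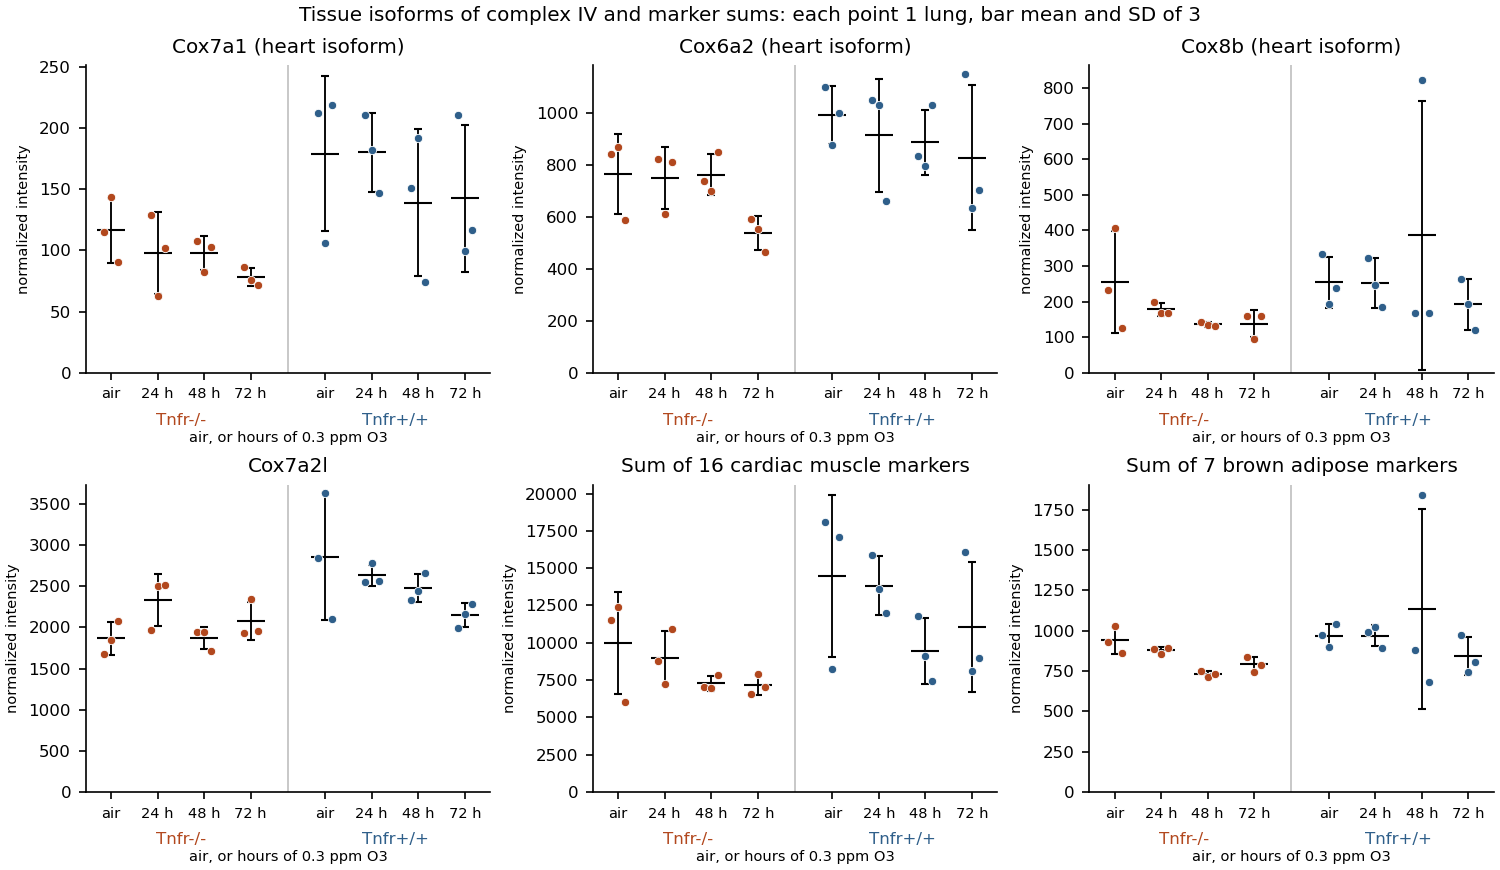
Intensity of Cox7a1, Cox6a2, Cox8b and Cox7a2l and summed intensity of the 16 heart markers and 7 brown fat markers (vertical axes) by genotype and exposure (horizontal axis), 1 point per lung. The heart marker sum in Tnfr-/- lungs at 48 h stays between 6960 and 7860, and 1 Tnfr+/+ lung at 48 h carries both the Cox8b value of 823 and the highest brown fat sum, 1840.

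Markers of other cell types also moved with O3. Of 9 alveolar macrophage markers, Marco, Chil3 and Mrc1 were called higher and Abcg1 lower at 48 h averaged over genotypes. Their sum was 20200 to 22700 in Tnfr-/- O3 lungs, against 12600 to 13800 in Tnfr-/- air lungs, and 15300 to 21100 in Tnfr+/+ O3 lungs, against 11400 to 13600 in Tnfr+/+ air lungs. Of 9 endothelial markers, Cdh5 and Kdr were called lower at 48 h, with sums of 25100 to 27400 in Tnfr-/- O3 lungs, against 28800 to 33200 in Tnfr-/- air lungs, and 21300 to 29800 in Tnfr+/+ O3 lungs, against 31700 to 38100 in Tnfr+/+ air lungs. Of 5 ciliated cell markers, Tppp3 was called lower, and of 9 alveolar type II markers none was called. Of 7 alveolar type I markers, Cav1 was called lower, with sums of 55800 to 56100 in Tnfr-/- O3 lungs, against 64400 to 65600 in Tnfr-/- air lungs, and 59100 to 64400 in Tnfr+/+ O3 lungs, against 63200 to 65600 in Tnfr+/+ air lungs. The part of these shifts in the values of the respiratory chain genes was not tested.

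The Gapdh 3'/5' signal ratio also differed between exposures. In Tnfr-/- lungs it was 1.28 to 1.43 in air, 1.03 to 1.22 at 24 h, 1.01 to 1.13 at 48 h and 0.89 to 1.08 at 72 h. In Tnfr+/+ lungs it was 1.31 to 1.56 in air, 1.53 to 1.74 at 24 h, 1.30 to 1.33 at 48 h and 1.02 to 4.45 at 72 h. The actin 3'/5' ratio, in the same order, was 1.2 to 1.27, 1.01 to 1.16, 1.03 to 1.1 and 1.02 to 1.09 in Tnfr-/- lungs. In Tnfr+/+ lungs the actin ratio was 1.26 to 1.55, 1.31 to 1.95, 1.13 to 1.29 and 1.1 to 1.18. A further fit, added after the data had been seen, took the mean of the log2 Gapdh and actin ratios as a covariate. On this covariate Tnfr+/+ O3 72 h replicate 1, with ratios of 4.45 and 1.18, lay furthest from its group. The slope thus rests largely on this 1 array. There 13 members were called higher at 48 h averaged over genotypes (15.1%, against 4.9% of all probe sets in that fit) and 0 lower (against 3.64%). At 72 h 16 were called higher (18.6%, against 6.79%) and 2 lower (2.33%, against 6.97%). Cycs, Atp5g1 and Uqcrc1 were among those called higher at both times. The part of RNA quality in the O3 values was not tested by these counts.

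Other mitochondrial genes were read in the same averaged comparisons, from lists kept for that purpose, against 4.39% of all probe sets called higher at 48 h and 5.63% at 72 h. Of 21 genes of protein import, Timm10, Timm13 and Timm23 were called higher at 48 h and Tomm40, Timm10, Timm23 and Hspa9 at 72 h, with list medians of 0.29 and 0.25. Of 74 mitochondrial ribosomal proteins 3 and 4 were called higher, shares near those of the array (medians 0.16 and 0.14), and of 17 genes of the tricarboxylic acid cycle 3 and 2 (medians 0.13 and 0.16). Of 17 genes of fatty acid oxidation 0 were called higher, with medians of 0.01 and -0.09, and Acaa2 was called lower at 72 h. Of 14 regulators of mitochondrial biogenesis, 1, Pprc1, was called higher at 48 h, and the list medians were -0.09 and -0.08, below those of the respiratory chain genes (0.12 and 0.04). Summed levels at 48 h, O3 against air, were also read in Tnfr-/- and then Tnfr+/+ lungs. For the 21 import genes they were 23700 to 25500 against 19400 to 22000, and 22900 to 24100 against 21800 to 25000, so that only the Tnfr-/- sums were separate. For 15 glycolysis genes they were 32900 to 34800 against 26300 to 31200, and 33000 to 38000 against 27200 to 29600. For 28 other assembly factors they were 16600 to 17100 against 15100 to 16400, and 14800 to 18100 against 15100 to 15800. For 14 antioxidant and inner membrane exchange genes they were 37700 to 39300 against 34600 to 37300, and 32900 to 41100 against 32900 to 35200. Over all 4 exposures, Nnt, the proton-pumping transhydrogenase of the inner membrane, read 725 to 1090 in Tnfr-/- lungs and 337 to 511 in Tnfr+/+ lungs. The averaged log2 difference was 1.10 (adjusted p = 2.2e-08 in limma). In it the receptor deletions and other strain differences cannot be told apart.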

How the data were processed

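Per the labels, RNA of 24 mouse lungs (3 animals in each of 8 groups) was hybridised to Affymetrix MOE430A arrays. The deposited values are probe set intensities on a linear scale, which the submitters' processing notes credit to MAS5 in Affymetrix Expression Console, and array scaling by the authors can shift all values of 1 array together. The genome build was not given in the sources used here and no coordinates of the files were used. Here the deposited intensities were quantile-normalised over 24 arrays, floored at 1 and converted to log2 (the deposited table itself was not on a log2 scale). A probe set was kept where it reached the 20th percentile on at least 1 array, which left 20537 of 22644 (64 control probe sets untested). Genes came from the platform annotation: 20338 probe sets name 1 gene, of which 20309 matched a current symbol by gene identifier, 691 name several genes and 1551 are not listed.

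One linear model held a mean for each of 8 groups (limma 3.58.1 in R 4.3.3, empirical Bayes variances with 16 residual and 2.38 prior degrees of freedom). It gave 17 comparisons: O3 against air in each genotype and averaged over both, Tnfr-/- against Tnfr+/+ at each exposure and averaged, and the interaction at each time. P-values were two-sided and adjusted by Benjamini-Hochberg over all probe sets tested in a comparison. Intervals are 95% intervals of the fitted difference. The number of arrays limits the precision. The analysis steps were tested on simulated data. Named genes were those called in any comparison, a selection of members with large differences or separate groups, and the isoforms with their markers. Not every member with a large difference is named. Members and lists were chosen with earlier results of these data known. Alternatives covered the normalisation, the added constant, the filter, the choice of probe set, the arrays fitted, array weights, the replicate block, an ordinary t-test and leaving out each array. Figures were drawn with matplotlib 3.10.9.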

Additional observations from a re-analysis of the deposited data

How the results depend on the processing

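Single-gene values were recomputed only where a member had an unadjusted p under 0.05 in the main limma fit of a comparison. The alternatives used mostly the same arrays, so a kept sign was likely beforehand and is no separate support. The direction of these values kept its sign in all but 20 of the recomputed values, and all 20 came from reading another probe set of the gene. Of the others, 2787 stayed on their side of the threshold, 128 lost and 112 gained a call. With the lowest-mean probe set, Uqcrq gave -0.84 in Tnfr-/- at 24 h, -0.20 in Tnfr-/- at 48 h, -0.30 in Tnfr+/+ at 72 h and, averaged, -0.15 at 48 h and -0.31 at 72 h. Ndufs4 gave -0.37 in Tnfr-/- at 48 h and, averaged, -0.41 at 48 h and -0.42 at 72 h. Sdhd gave -0.58 in Tnfr-/- at 48 h, -0.32 averaged at 48 h, -0.32 for Tnfr-/- against Tnfr+/+ at 48 h and -0.10 for the averaged genotypes. Ndufa12 gave -0.52 in Tnfr-/- at 72 h and -0.33 averaged, Ndufaf4 -0.03 in Tnfr+/+ at 48 h, Cox5b -0.11 in Tnfr+/+ at 72 h, and Uqcr10 0.17 for Tnfr-/- against Tnfr+/+ at 72 h. With the mean of all probe sets, Uqcrq gave -0.03 in Tnfr-/- at 48 h and Ndufs4 -0.07 and -0.05 averaged at 48 and 72 h. The cause was not tested.

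The count of members called (2, 2, 1, 5, 7 and 2 for Tnfr-/- at 48 and 72 h, averaged O3 at 24, 48 and 72 h, and averaged genotype, and 0 elsewhere) moved as follows. On the intensities as deposited and with cyclic loess it was 1 in Tnfr+/+ at 72 h and 0 averaged at 24 h. With 32 added it was 1 in Tnfr-/- at 24 h, and with no filter 0 averaged at 24 h. With probe sets at or above the median level it was 3 in Tnfr+/+ at 72 h, 1 and 4 in Tnfr-/- at 24 and 48 h, and 9 and 12 averaged at 48 and 72 h. With the lowest-mean probe set it was 1 in Tnfr-/- at 24 h and 1 for genotype, and with the mean of all probe sets 1, 2 and 1 for Tnfr-/- at 24 h, averaged O3 at 24 h and genotype. With only the arrays compared it was 1 and 0 in Tnfr-/- at 48 and 72 h and 0, 8 and 3 averaged at 24, 48 and 72 h. With array quality weights it was 1 and 2 in Tnfr+/+ at 48 and 72 h, 1 and 10 in Tnfr-/- at 24 and 48 h, and 11 averaged at 48 h. Without Tnfr+/+ O3 72 h replicate 1 in any fit it was 1 and 1 in Tnfr+/+ at 48 and 72 h, 1 in Tnfr-/- at 24 h, 9 averaged at 48 h and 1 for genotype. With the 3'/5' ratio as a covariate, added after the data had been seen, it was 1 and 7 in Tnfr+/+ at 48 and 72 h, 1 and 5 in Tnfr-/- at 24 and 48 h, 13 and 18 averaged at 48 and 72 h, and 0 for genotype. The ordinary t-test called 0 in Tnfr-/- at 48 and at 72 h. Leaving out 1 array at a time gave 0 to 5 in Tnfr+/+ at 72 h, 1 to 2 and 1 to 3 in Tnfr-/- at 48 and 72 h, 0 to 1, 3 to 6 and 4 to 10 averaged at 24, 48 and 72 h, 0 to 1 between genotypes in air and 0 to 3 for the averaged genotypes. The other comparisons stayed at 0 in those fits.

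Same-numbered arrays did not deviate together (mean correlation 0.00715 over 84 pairs, against -0.00345 for other numbers), and 9 of 24 arrays lay closest to their own number. The labels give the numbers no meaning beyond that. With the replicate number as a block, 0 members were called averaged at 24 h and 3 at 48 h (Atp5g1, Cycs and Uqcrc1). The median log2 fold change of the members at 48 h, averaged, stayed at 0.10 to 0.16 over all alternatives. The number of lungs, 3 a group, limits the precision.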
